A study of Carica papaya with 7 samples.

Results

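The genes described here are 10 Arabidopsis heat shock and DnaJ chaperone genes, measured in papaya pulp as 10 of the 22746 non-control probe sets of the ATH1 GeneChip. They were chosen by name: 3 genes of the HSP70 class, 3 of the small heat shock protein (HSP) class and 4 of the DnaJ class, each with 1 probe set. The study named 8 of them in its lists of genes that differed between the stages, which it made on these same samples, and the other 2, HSC70-3 and HSP17.6B, were found through the array annotation.

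Chaperones bind unfolded or partly folded proteins. HSP70 proteins do this in cycles driven by ATP, and DnaJ proteins, which share a J domain, deliver clients to HSP70 and stimulate its ATPase. Small HSPs hold unfolding proteins without ATP until HSP70 can refold them, and in plants many of them are made mainly under heat and at certain stages of development, such as seed maturation.

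The samples were ripe pulp and unripe pulp of 'Golden' papaya, a climacteric fruit, with 3 columns of signals each. The study describes each sample as a pool of 12 fruits, from which peel and seeds had been removed, and 1 pair of samples came from an earlier harvest year than the others. The array carries Arabidopsis probes, so that a papaya transcript is seen only as far as its sequence pairs with them, and the signals of different genes cannot be set against each other. Total RNA of pulp was measured, in which less RNA per cell and fewer cells of a type cannot be told apart. The genomic DNA array, which the study hybridized to select probes, was not analysed here.

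The 3 columns of a stage held 1 independent set of values. In both stages replicate 2 was 1.19 times replicate 1 in every probe set, and replicate 3 was the mean of both, within 0.0011 of the signal. No difference between ripe and unripe pulp therefore has a replicate check, and neither an SD nor a p-value is given. Differences are on the log2 scale, the mean over the ripe columns minus the mean over the unripe ones. The fold limit that the study used corresponds to a log2 difference of 0.322 in either direction. Over all non-control probe sets the median signal was 4.21 in ripe and 4.21 in unripe pulp, the median difference was -0.0047, and the lower and upper quartiles of the differences were -0.11 and 0.10. The 27 Bacillus subtilis control probe sets, which have no plant target, differed by -0.28 to 0.12 (SD 0.13), and the brightest of them reached 7.93 in ripe and 8.24 in unripe pulp. Of the spiked hybridization controls, those for bioB, bioC and bioD differed by a median of -0.60, and those for cre by a median of -0.053.

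The chaperone genes stood on both sides of 0, except when scaled to bioB, bioC and bioD, where all 10 were higher in ripe pulp. That scaling adds 0.60 to every probe set of the array, and 94.6% of all probe sets are then higher by more than the fold limit. A DnaJ gene, AT1G76700, was higher in ripe pulp by 0.33 on the log2 scale (1.26 fold), and another, AT5G22060, was lower, by a difference of -0.34 (0.792 fold). Next to AT1G76700 on the higher side stood the HSP70 gene AT1G16030, at 0.31 (1.24 fold), and the small HSP gene HSP17.6B, at 0.27. The differences of the other 6 genes lay within the range of the Bacillus subtilis controls. In all, 7 of the 10 genes were higher in ripe pulp and 3 lower, where 48.4% of all probe sets were higher and 51.3% lower. Past the fold limit, 1 gene of 10 was higher, against 3.57% of all probe sets, and 1 was lower, against 3.53%. Because the columns are proportional, leaving one out moves every probe set by about the same amount, and the counts move with those over the whole array. They were 3 higher and 0 lower without ripe replicate 1 (6.59% and 1.90% of all probe sets) or unripe replicate 2 (6.50% and 1.96%). They were 0 higher and 1 lower without ripe replicate 2 (1.88% and 6.72%) or unripe replicate 1 (1.84% and 6.90%). The ripe and unripe columns did not overlap for 3 genes that were higher and 1 that was lower, against 7.04% and 7.47% of all probe sets. Since the columns of a stage differ only by the factor of 1.19, this separation says no more than that the fold exceeded it. The median of the 10 differences was 0.051 on the log2 scale. For some of these genes the study lists the opposite direction, as stated with each of them below. For the other genes that it names, the study lists a larger difference in the same direction. Why the deposited signals and the lists of the study differ was not tested.

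**Figure D1:**
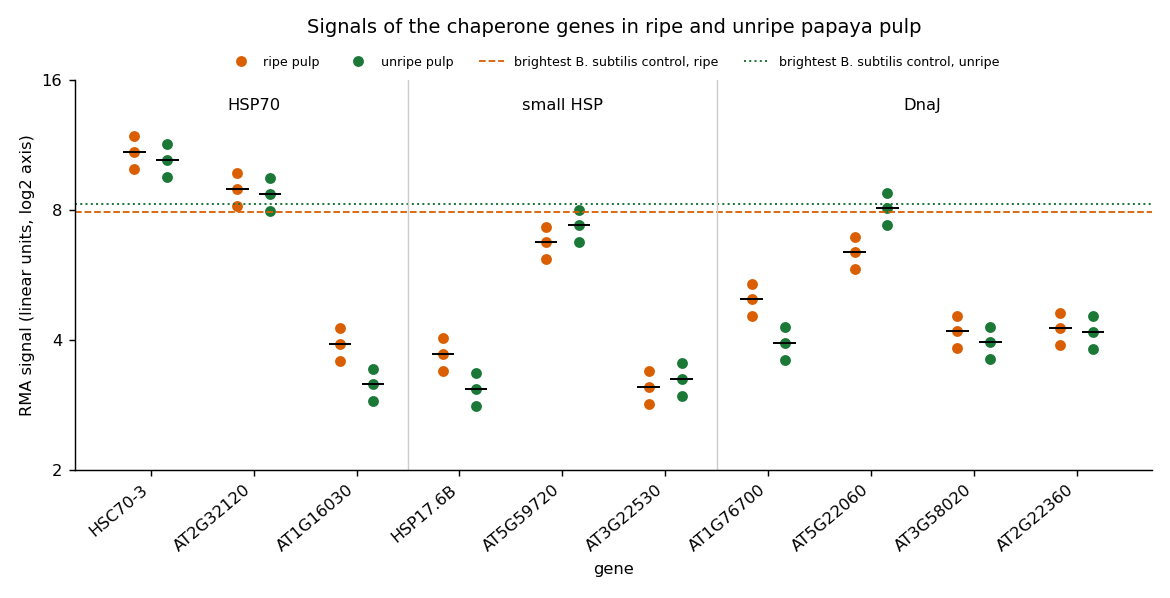
RMA signal on a log2 axis of each of the 10 genes in ripe (orange) and unripe (green) pulp. Points are the 3 columns of a stage, which are proportional to each other, short lines are their means, and horizontal lines mark the brightest Bacillus subtilis control of each stage. HSC70-3 and AT2G32120 are the genes with means above these controls in both stages, and AT5G22060 shows the widest gap between ripe (6.38) and unripe (8.06) pulp.

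HSC70-3 (AT3G09440) encodes a cytosolic HSP70 that Arabidopsis makes also without heat. Its signals were 9.97, 11.9 and 10.9 in the ripe columns, against 9.54, 11.4 and 10.4 in the unripe columns, a log2 difference of 0.064. The columns of the stages overlapped. Its mean was above the brightest Bacillus subtilis control in both stages. Cytosolic HSP70 genes are close copies of each other, and a cross-species signal of this probe set may come from more than 1 papaya gene. AT2G32120 encodes a truncated HSP70 of Arabidopsis. Its signals were 8.17, 9.73 and 8.95 in ripe pulp and 7.97, 9.48 and 8.72 in unripe pulp, and its difference was 0.037. This was also above the controls in both stages, and 80.2% of all probe sets had a larger difference in either direction. Of the 10 genes, HSC70-3 and AT2G32120 were the 2 brighter than the controls in ripe and in unripe pulp, while 9.9% of all probe sets were brighter in ripe and 9.03% in unripe pulp.

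AT1G16030 (HSP70b) encodes a cytosolic HSP70 that is induced by heat in Arabidopsis. Its signals were 3.58, 4.26 and 3.92 in ripe pulp, against 2.88, 3.43 and 3.16 in unripe pulp. The log2 difference was 0.31, just under the fold limit but past the factor of 1.19 between columns. The ripe columns therefore stood above the unripe ones, as for 7.04% of all probe sets. A larger difference, in either direction, was found in 7.94% of all probe sets. Its mean signals in both stages were below the median of all probe sets and below the brightest Bacillus subtilis control. The same gene was followed by the study with quantitative PCR, which is not analysed here. The pair of primers designed for its papaya counterpart is shown because it defines which papaya sequence the name HSP70 stands for in the study. Both are given 5′ to 3′, with no part in capitals, and each has 19 bases, 52.6% of them G or C.
hsp70_f: agctagccttgccatatcc
hsp70_r: ctgcaatccgatcatagcg

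The small HSP genes went both ways. HSP17.6B (AT2G29500) encodes a cytosolic class I protein. It had signals of 3.39, 4.03 and 3.71 in ripe pulp, against 2.81, 3.35 and 3.08 in unripe pulp. The log2 difference was 0.27, past the factor of 1.19 between columns, so that the columns did not overlap. This held, with ripe higher, for 7.04% of all probe sets. AT5G59720 (HSP18.2) encodes another class I protein, strongly induced by heat in Arabidopsis. Its signals were 6.15, 7.32 and 6.74 in ripe pulp and 6.73, 8.01 and 7.37 in unripe pulp, a difference of -0.13. Its columns overlapped between the stages. AT3G22530, annotated as an HSP20-like chaperone, had signals of 2.84, 3.38 and 3.11 in ripe pulp and 2.97, 3.54 and 3.25 in unripe pulp, and its difference was -0.066. For both genes with a negative difference here, the study lists the opposite direction, higher in ripe pulp. None of the 3 small HSP genes was brighter than the Bacillus subtilis controls in ripe or unripe pulp, against 9.9% and 9.03% of all probe sets. Both negative differences were within the range of these controls.

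Of the 3 classes, DnaJ had the widest range, but it has 4 genes against 3 in each of the others. The genes at its ends, AT1G76700 and AT5G22060, were listed by the study as differing in these same samples. AT1G76700 encodes a protein with a J domain. Its signals were 4.54, 5.40 and 4.97 in ripe pulp, against 3.60, 4.29 and 3.94 in unripe pulp. The fold exceeded the factor of 1.19 between columns, which by itself put the lowest ripe column above the highest unripe column (7.04% of all probe sets). The log2 difference was 0.33, and 6.42% of all probe sets had a larger difference in either direction. AT5G22060 (J2) encodes a DnaJ protein with a zinc-binding central domain, which works with cytosolic HSP70 in Arabidopsis. Its signals were 5.83, 6.94 and 6.38 in ripe pulp, against 7.36, 8.76 and 8.06 in unripe pulp. The difference was -0.34, and 6.14% of all probe sets had a larger one in either direction. Since this fold also exceeded 1.19, all ripe columns were below all unripe columns (7.47% of all probe sets).

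The remaining DnaJ genes were nearly level. AT3G58020 had signals of 3.82, 4.55 and 4.18 in ripe pulp and 3.61, 4.29 and 3.95 in unripe pulp, a log2 difference of 0.084. AT2G22360 encodes a DnaJ protein of the chloroplast in Arabidopsis. It had signals of 3.89, 4.63 and 4.26 in ripe pulp and 3.81, 4.54 and 4.18 in unripe pulp, a difference of 0.028. The columns of both genes overlapped between the stages, and 84.6% of all probe sets had a larger difference than AT2G22360. The study lists both genes as lower in ripe pulp, opposite to the direction here. None of the 4 DnaJ genes had a mean above the brightest Bacillus subtilis control, which AT5G22060 approached in unripe pulp. Of all probe sets, 9.9% were above it in ripe and 9.03% in unripe pulp.

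**Figure D2:**
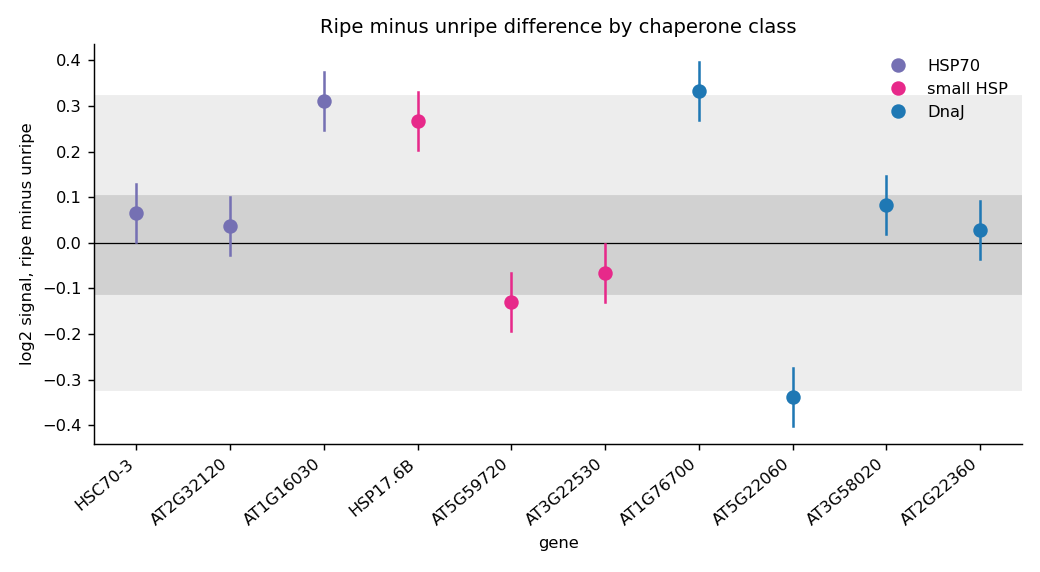
Log2 signal in ripe minus unripe pulp of each gene (points, coloured by class), with lines from the lowest to the highest value when 1 column is left out. The length of these lines follows from the factor of 1.19 between columns, and they measure no spread or uncertainty of a gene. The dark band spans the quartiles of all probe sets, the light band marks the fold limit either way, and AT1G76700 (0.33) and AT5G22060 (-0.34) lie outside it on opposite sides; scaled to bioB, bioC and bioD all points would lie 0.60 higher and AT5G22060 above 0.

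By class, the median log2 difference for HSP70 was 0.064, with 3 of 3 genes higher, against 48.4% of all probe sets. Leaving out ripe replicate 2 or unripe replicate 1 shifted all probe sets by a median of -0.062 or -0.064. The HSP70 median was above 0 under each scaling tried, but only 0.0025 without ripe replicate 2 and 0.00066 without unripe replicate 1. For small HSP it was -0.066 (1 of 3 higher), which was above 0, at 0.54, when scaled to bioB, bioC and bioD. For DnaJ it was 0.056 (3 of 4 higher), and -0.0058 without ripe replicate 2 and, leaving out unripe replicate 1, -0.0077, as well as -0.0024 over the 2 DnaJ genes with a mean signal above the median of all probe sets. The distance between the highest and the lowest gene was 0.27 within HSP70, 0.40 within small HSP and 0.67 within DnaJ. A constant added to all log2 signals of an array, as in scaling to controls, leaves these distances as they are. Over the other genes of these families, described below, DnaJ ran from -0.28 to 0.28, small HSP from -0.11 to 0.41 and HSP70 from -0.077 to 0.14. In the order of the differences, AT5G22060 stood alone at the low end, 0.21 below AT5G59720, and HSP17.6B stood 0.18 above AT3G58020. Between them, AT2G22360, AT2G32120, HSC70-3 and AT3G58020 followed each other at steps of 0.0090, 0.027 and 0.019. At the high end HSP17.6B, AT1G16030 and AT1G76700 lay within 0.043 and 0.022 of their neighbours. Steps of this size are smaller than the SD of the Bacillus subtilis controls, and these neighbours are given as a group without an order.

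The direction of some differences depended on the scaling, and these included the largest in size, that of AT5G22060. With bioB, bioC and bioD as the reference, every difference on the array was 0.60 larger, and 94.6% of all probe sets were higher by more than the fold limit. AT5G22060, AT5G59720 and AT3G22530 were then higher in ripe pulp, at 0.27, 0.47 and 0.54. With cre as the reference no gene changed sign, and AT1G16030 passed the fold limit at 0.36, while AT5G22060, at -0.28, did not. Leaving out ripe replicate 2 or unripe replicate 1 lowered all probe sets by a median of 0.062 or 0.064, which put AT2G32120 and AT2G22360, whose differences are smaller than that, below 0.

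**Figure D3:**
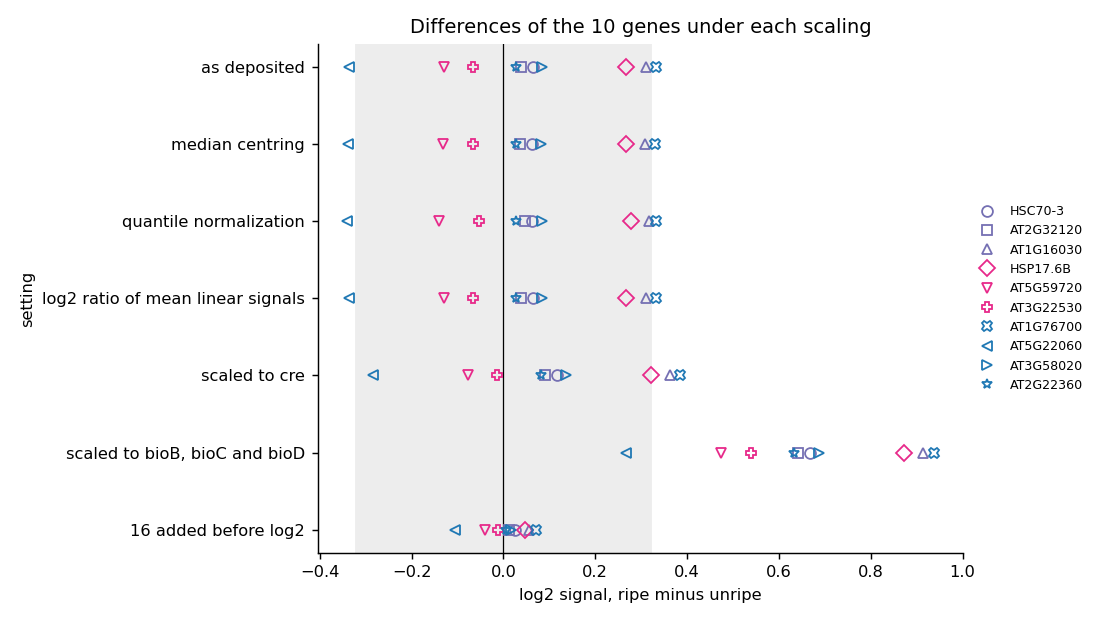
Log2 signal in ripe minus unripe pulp (horizontal axis) of the 10 genes under each setting (vertical axis), with a symbol for each gene coloured by class and a band at the fold limit. Scaling to bioB, bioC and bioD moves all genes by 0.60 to the right with their order kept, and adding 16 to each signal draws them towards 0.

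The wider chaperone families were set beside the 10 genes. Of 126 genes in 8 families, 48 had a probe set of their own that could be named, the 10 included. No probe set could be named for the HSP90 family or the heat shock factors, which control these genes, nor 1 of its own for HSP100. Among the 38 other genes 20 were higher in ripe pulp and 18 lower, against 48.4% and 51.3% of all probe sets, with a median log2 difference of 0.023. Past the fold limit 4 were higher and 1 lower, against 3.57% and 3.53% of all probe sets.

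In the small HSP family 7 of the 8 other genes were higher and 1 lower, against 48.4% and 51.3% of all probe sets, with a median log2 difference of 0.089, and 2 were higher by more than the fold limit, against 3.57%. AT1G54050, a class III protein, had signals of 4.29, 5.10 and 4.70 in ripe pulp, against 3.22, 3.84 and 3.53 in unripe pulp, a difference of 0.41. AT2G19310 had signals of 3.81, 4.53 and 4.17 in ripe pulp, against 2.86, 3.41 and 3.13 in unripe pulp, also a difference of 0.41. For both genes the fold exceeded the factor of 1.19 between columns, so that the ripe columns stood above the unripe ones (7.04% of all probe sets). AT5G51440, a mitochondrial protein, was at 0.32, just under the fold limit, and the lower gene was ATHSP22.0, of the endoplasmic reticulum, at -0.11. None of the 11 measured genes of the family was brighter than the Bacillus subtilis controls, against 9.9% of all probe sets in ripe and 9.03% in unripe pulp. The median of the family, with the 3 genes above included, was 0.052, and it was below 0, at -0.0099 and -0.012, when ripe replicate 2 or unripe replicate 1 was left out. All probe sets shifted with it, by a median of -0.062 and -0.064.

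Of the 15 genes of the DnaJ family 7 were higher and 8 lower, against 48.4% and 51.3% of all probe sets. The median log2 difference was -0.0023. It was above 0 when scaled to cre (0.050) or to bioB, bioC and bioD (0.60), and after quantile normalization (4.23e-05). It was also above 0 without ripe replicate 1 (0.061) or unripe replicate 2 (0.060), where all probe sets shifted by a median of 0.064 and 0.062. Apart from AT1G76700 and AT5G22060 no gene of the family passed the fold limit, against 3.57% of all probe sets higher and 3.53% lower. The extremes of the others were AT3G08910, at 0.28, and ATJ1, a mitochondrial DnaJ protein, at -0.28, with mean signals of 7.99 in ripe and 9.73 in unripe pulp. ATERDJ3B, of the endoplasmic reticulum, had means of 8.26 in ripe and 6.88 in unripe pulp, a difference of 0.26. ATJ1 was brighter than the Bacillus subtilis controls in both stages and ATERDJ3B in ripe pulp. Of the HSP70 family, the other 3 genes were AT1G11660 at 0.14, AT4G16660 at 0.029 and HSC70-2 at -0.077. HSC70-2 had the signals 16.8, 20.0 and 18.4 in ripe pulp, against 17.7, 21.1 and 19.4 in unripe pulp, which overlapped.

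Chaperonins fold proteins inside a ring-shaped chamber. Of their 10 genes 6 were higher and 4 lower, against 48.4% and 51.3% of all probe sets. The median log2 difference was 0.077, which was above 0 under each scaling tried. It was 0.015 without ripe replicate 2 and 0.014 without unripe replicate 1, where all probe sets shifted by a median of -0.062 and -0.064. Of the 10 genes, AT1G24510 alone was brighter than the Bacillus subtilis controls, against 9.9% of all probe sets in ripe and 9.03% in unripe pulp. Its means were 9.94 in ripe and 10.6 in unripe pulp, a difference of -0.096. Past the fold limit 2 were higher, AT3G18190 and AT3G02530, subunits of the cytosolic ring complex, against 3.57% of all probe sets. The first had signals of 6.82, 8.12 and 7.47 in ripe pulp, against 5.10, 6.07 and 5.59 in unripe pulp, a difference of 0.42. The second had signals of 4.69, 5.58 and 5.13 in ripe pulp, against 3.69, 4.39 and 4.04 in unripe pulp, a difference of 0.35. The lowest of the 10 genes were AT3G03960, at -0.28, and AT5G26360, at -0.25, also subunits of the same complex. All 4 of these genes were below the brightest Bacillus subtilis control in both stages. Of 6 co-chaperone genes 5 were lower and 1 higher, against 51.3% and 48.4% of all probe sets. Their median was -0.091, which scaling to bioB, bioC and bioD took to 0.51. Past the fold limit 1 was lower, the HSP70 and HSP90 adaptor gene Hop1, against 3.53% of all probe sets. Hop1 had signals of 2.64, 3.14 and 2.89 in ripe pulp, against 3.34, 3.97 and 3.65 in unripe pulp, a difference of -0.34. Its means in both stages were below the brightest Bacillus subtilis control and below the median of all probe sets. The higher gene was Fes1A, a nucleotide exchange factor of HSP70, with means of 8.60 in ripe and 7.21 in unripe pulp and a difference of 0.25.

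**Figure D4:**
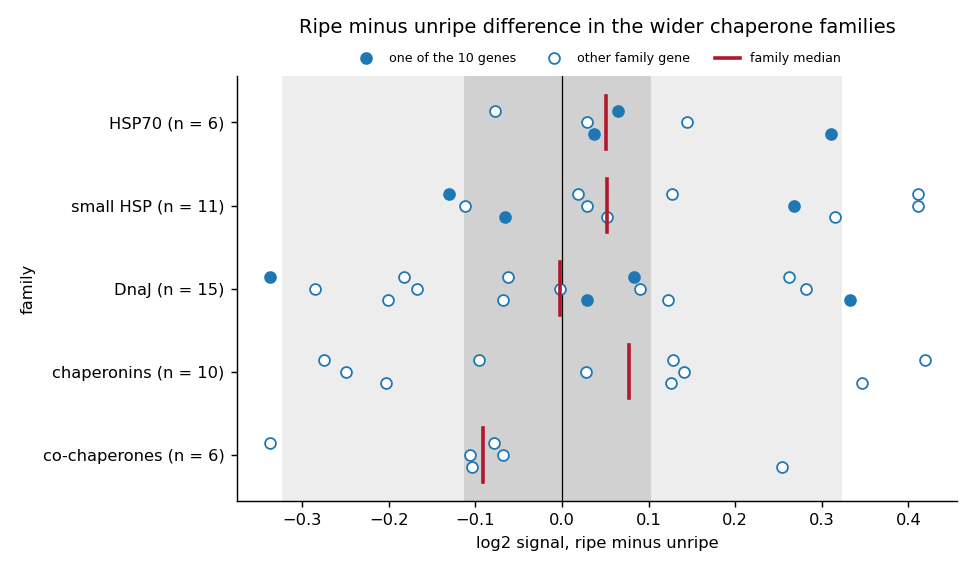
Log2 signal in ripe minus unripe pulp of 48 genes in 5 chaperone families (rows). Filled points are the 10 genes described first, open points the other genes, red lines the family medians, the dark band the quartiles of all probe sets and the light band the fold limit either way. Medians lie between -0.091 and 0.077 and genes of each family stand on both sides of 0; scaled to bioB, bioC and bioD all points would lie 0.60 higher.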

How the data were processed

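Pulp RNA was hybridized to Affymetrix ATH1 arrays. According to the methods, the authors summarized the scans by RMA and masked probes with genomic DNA. For each of 22810 probe sets they deposited an intensity, the RMA signal without log. The table lists the whole array, so that probe sets removed by the mask were not left out of it; whether masked probes entered the signals was not determined here. No count includes the 64 control probe sets.

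The members and lists were chosen with earlier results of these data known. Probe sets of 8 genes were taken from the tables of the paper, and 2 from GEO's platform annotation, which gave 1 symbol for 13523 probe sets, several for 493 and none for 8730. No gene was named from a probe set with several symbols. The rule for named genes took the 10 genes and, of each family, those past the fold limit or otherwise the highest and lowest; AT5G51440, ATHSP22.0, AT3G08910, ATJ1, ATERDJ3B, AT1G11660, AT4G16660, AT3G03960, AT5G26360, AT1G24510 and Fes1A were added after their values were seen. The lists of 6 seed and 2 peel marker genes matched 0 probe sets, so that the tissue could not be checked.

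Signals under 1 were raised to 1 before log2. With 1 set of values per stage, limma and the replicate block could not be used, and counts past the fold limit are no test. The array gives no depth, and the number of arrays limits the precision. The calculation was run on simulated proportional columns without noise, which checks its arithmetic alone and not the differences reported here. Python 3.11.15, numpy 2.4.6, pandas 2.3.3 and matplotlib 3.10.9 were used.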

Additional observations from a re-analysis of the deposited data

How the results depend on the processing

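No paired analysis was possible because the columns of a stage are proportional, which leaves no spread between replicates. Comparisons with genomic DNA, and the filter on its signal, were not run. A shift was read against the SD of the 27 Bacillus subtilis controls, 0.13, since there is no replicate spread. Median centring, quantile normalization and the log2 ratio of mean linear signals moved none of the differences, medians and counts of the 10 genes beyond these limits. Scaled to bioB, bioC and bioD, 9 genes were higher and 0 lower by more than the fold limit, as were 94.6% and 0.035% of all probe sets, AT5G22060 was at 0.27, opposite in sign, and the class medians were 0.67 for HSP70, 0.54 for small HSP and 0.66 for DnaJ. Scaled to cre, 2 genes were higher and 0 lower (5.97% and 2.14% of all probe sets). With 16 added before log2, 0 were higher and 0 lower, against 0.075% and 0.13% of all probe sets. With 1.5 fold as the limit, 0 were higher and 0 lower, for which the share of all probe sets is not given here. Leaving out 1 column, which with proportional columns is a near-constant shift of the array and no replicate check, gave 0 to 3 higher and 0 to 1 lower genes. There were 3 higher and 0 lower without ripe replicate 1 or unripe replicate 2. Without ripe replicate 2 or unripe replicate 1 there were 0 higher and 1 lower. The shares of all probe sets ran between 1.84% and 6.59% higher and between 1.90% and 6.90% lower. The 95th percentile of the Bacillus subtilis and cre controls, which the bright cre probe sets fix, was 4832 in ripe and 5129 in unripe pulp. The brightest non-control probe set reached 2054 in ripe and 2306 in unripe pulp. So 0 genes were brighter than this limit in ripe and 0 in unripe pulp, as no probe set of the array could be, and the count says nothing about these genes. Of the 10 genes, 8 were no brighter than the brightest Bacillus subtilis control in either stage, and of all probe sets 9.9% were brighter in ripe and 9.03% in unripe pulp.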
